A study of Sus scrofa with 20 samples.

Results

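ATF4, DDIT3 and ASNS, 3 genes of the integrated stress response, were followed in kidney RNA of 20 pigs. They were taken as all probe sets whose platform gene symbol is ATF4, DDIT3 or ASNS, which gave 4 of 23999 probe sets, 2 for ATF4, 1 for DDIT3 and 1 for ASNS, and 3 of 6765 named genes. The neurologic death (ND) group held 10 pigs that were prepared with a burr hole and catheters under anaesthesia and then had a subdural balloon catheter inflated until ND was established. The control group held 10 pigs with the same preparation and no balloon inflation. All 20 animals were ventilated for 6 h after randomization, with boluses of 2 cc/kg of 0.9% NaCl as needed to hold mean arterial pressure above 35 mmHg, before kidney tissue was snap frozen. Age, sex and strain were not among the labels, and each array was taken as 1 animal, named by group and number (ND_47, Control_187).

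The integrated stress response is the pathway by which cells lower general protein synthesis when amino acids run short, when unfolded protein builds up in the endoplasmic reticulum, when viral RNA is sensed or when mitochondria fail. Kinases that sense these stresses phosphorylate the initiation factor eIF2, whose exchange factor eIF2B is then inhibited. Under that condition the ATF4 messenger is translated better, and ATF4, a bZIP transcription factor, raises genes of amino acid synthesis, amino acid transport and tRNA charging. DDIT3 encodes CHOP, a bZIP factor induced by ATF4 that is best known for its part in cell death under prolonged endoplasmic reticulum stress. ASNS encodes asparagine synthetase, which makes asparagine from aspartate and glutamine and is a classic ATF4 target. Much of the control of ATF4 lies in translation, which RNA arrays do not read.

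Signals were deposited on a log2 scale, and their precision is limited by the 10 arrays of each group. Array medians lay between 5.15 and 5.35 in ND animals and between 5.09 and 5.28 in controls. Each difference is the ND mean minus the control mean (log2), and adjusted p-values come from a limma fit of every probe set that was not an array control. Signals of tag and tryptophan control probe sets, which match no kidney RNA, reached 2.79 and were taken as background. Kidney transcripts were present: the 3 measured proximal tubule markers (LRP2, SLC22A6 and SLC22A8) had a mean signal between 9.19 and 11.7 in ND animals and between 10.1 and 11.4 in controls. Whole tissue was measured, so a change in the cells that hold a transcript and a change in transcript per cell cannot be told apart.

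All 3 genes were higher in the kidneys of ND pigs: ATF4 by 1.59-fold, DDIT3 by 2.28-fold and ASNS by 2.38-fold. Of the 4 probe sets, the brighter one of ATF4 and those of DDIT3 and ASNS passed the threshold (adjusted p under 0.05), and the second ATF4 probe set did not. Over all 23999 probe sets 7.13% passed in either direction and 3.8% passed as higher and 3.33% as lower in ND. The 3 genes were chosen with earlier results of these data known, so this share is given only as a background.

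ATF4 was read by probe set Ssc.11072.1.S1_at, at a lowest signal of 11.35, a median of 11.82 and a highest of 12.48 in ND animals, against 10.80, 11.13 and 11.64 in controls. The groups overlapped at their edges: 8 of 10 ND animals lay above the highest control, Control_187, and 8 of 10 controls lay below the lowest ND animal, ND_01. The mean was 11.86 ± 0.32 in ND animals and 11.18 ± 0.23 in controls (SD, n = 10 each). The difference was 0.67 ± 0.12 (SE), with a 95% interval of 0.42 to 0.93 and a limma adjusted p of 0.00243. A two-sided permutation test of the difference of means gave p = 7.0e-05.

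The second ATF4 probe set, Ssc.11072.2.A1_at, lay under background on all 20 arrays. Its signals were 1.86 to 1.98 in ND animals and 1.89 to 1.94 in controls, and its difference was -0.01 (limma adjusted p = 0.665). It gave no reading of the ATF4 transcript here. Between the ATF4 probe sets Pearson r over 10 animals was 0.59 in ND and -0.22 in controls, given as a description.

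DDIT3 was read by probe set Ssc.16605.1.S1_at, at a lowest signal of 7.81, a median of 8.21 and a highest of 8.95 in ND animals, against 6.32, 7.08 and 8.17 in controls. A single control, Control_187, at 8.17, reached into the ND range, and the other 9 controls, up to 7.49, lay below the lowest ND animal. Of the ND animals 5 of 10 lay above Control_187. The mean was 8.20 ± 0.36 in ND animals and 7.01 ± 0.59 in controls (SD, n = 10 each). The difference was 1.19 ± 0.21 (SE), with a 95% interval of 0.74 to 1.63 and a limma adjusted p of 0.00226. The permutation test gave p = 6.0e-05. By limma p DDIT3 stood at rank 233 among the 23999 probe sets, ATF4 at 245 and ASNS at 1096.

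ASNS was read by probe set Ssc.11609.1.A1_at, at a lowest signal of 8.06, a median of 8.93 and a highest of 11.51 in ND animals, against 7.21, 7.72 and 8.28 in controls. The highest value came from ND_47, and the next ND animal, ND_100, read 9.09. Of the ND animals 8 of 10 lay above the highest control, Control_156. The mean was 8.96 ± 0.98 in ND animals and 7.70 ± 0.38 in controls (SD, n = 10 each). The difference was 1.25 ± 0.32 (SE), with a 95% interval of 0.58 to 1.93 and a limma adjusted p of 0.0227. The permutation test gave p = 8.0e-05. Without ND_47 the ASNS difference was 0.97 and the limma adjusted p was 0.00310.

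**Figure D1:**
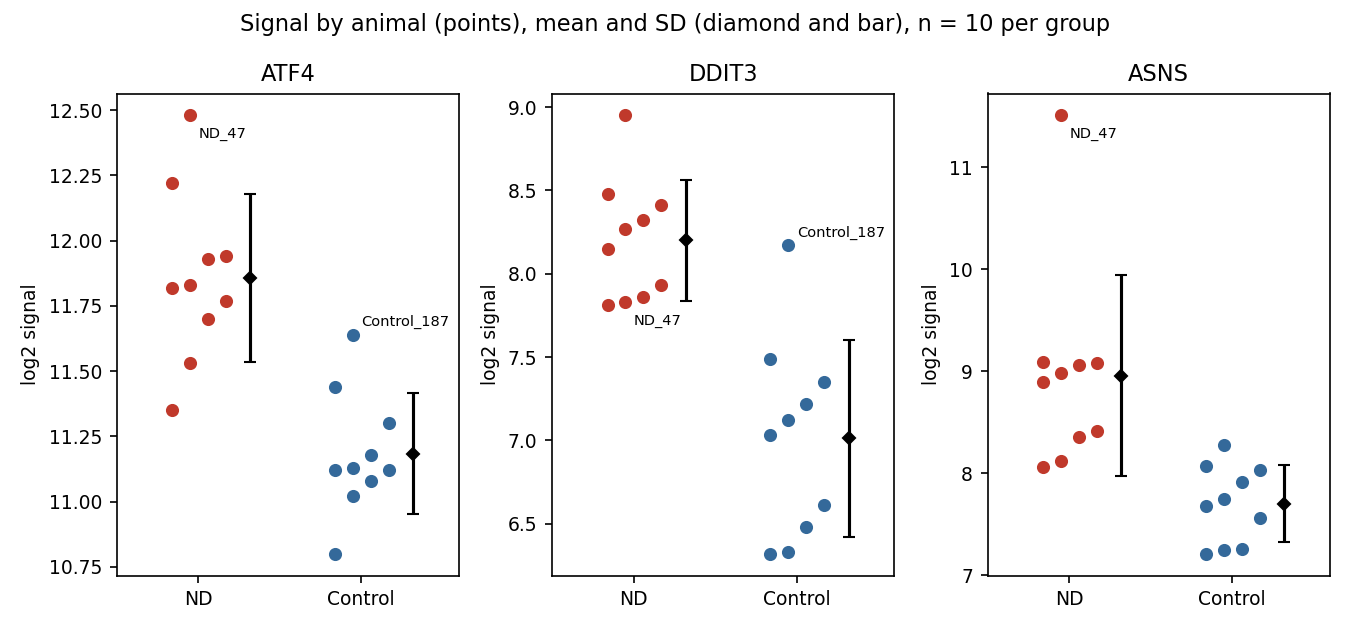
Log2 signal of the ATF4, DDIT3 and ASNS probe sets (vertical axes) in each ND and control animal (points), with the group mean and SD (diamond and bar, n = 10 each). ND values lie above most control values in each panel; ND_47 reads 11.51 for ASNS and Control_187 reads 8.17 for DDIT3.

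The sizes of the 3 changes were compared through within-array log2 ratios, and 1 of the 3 pairs differed. The probe sets differed in signal level, with control means of 11.18 for ATF4, 7.01 for DDIT3 and 7.70 for ASNS. The part of signal level or probe set in these gaps was not tested. The ATF4 change was smaller than the ASNS change by 0.58 (permutation p = 0.0138, adjusted over the 3 pairs p = 0.0413). It was smaller than the DDIT3 change by 0.52, which missed the threshold (permutation p = 0.0382, adjusted p = 0.0573). Without ND_47 these gaps were 0.37 and 0.63, with adjusted p-values of 0.0416 and 0.0328. The DDIT3 and ASNS changes differed by -0.06 (DDIT3 minus ASNS, adjusted p = 0.896), with a spread of the ratio between animals of 1.17 in ND and 0.72 in controls (SD, n = 10 each), so that these arrays could not separate their sizes.

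Animal number moved with the groups, since numbers up to 100 belonged to 7 of 10 ND pigs and to 1 of 10 control pigs. With a term for that split DDIT3 kept its call at 1.38 (limma adjusted p = 0.0101). ATF4 was then at 0.57 (adjusted p = 0.0621) and ASNS at 1.06 (adjusted p = 0.226), so both calls were lost. Within the range of 180 to 200, where the labels give 3 ND animals and 5 controls, the differences were 0.61 for ATF4, 0.93 for DDIT3 and 0.95 for ASNS, and limma adjusted p-values over all probe sets were 0.210, 0.289 and 0.185. Exact two-sided permutation tests of those 8 animals, which cannot go below 0.0179, gave unadjusted p-values of 0.0357 for ATF4, 0.0536 for DDIT3 and 0.0179 for ASNS. No such test was possible among animals up to 100, which included 1 control, or from 130 to 160, which were all controls.

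DDIT3 also varied with number among the controls themselves. It averaged 7.45 ± 0.44 in the 5 controls numbered 180 to 200 (SD) and 6.56 ± 0.38 in the 4 controls numbered 130 to 160 (SD), and Control_02 read 6.61. Among ND animals it averaged 8.38 ± 0.55 in the 3 numbered 180 to 200 and 8.12 ± 0.28 in the 7 numbered up to 100 (SD). ATF4 averages were close in those control ranges, at 11.15 ± 0.31 and 11.16 ± 0.10, as did ASNS at 7.63 ± 0.38 and 7.82 ± 0.45 (SD, n = 5 and 4). The labels do not say what the numbers stand for, and their part in the group differences was not tested beyond the term and the range above.

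**Figure D2:**
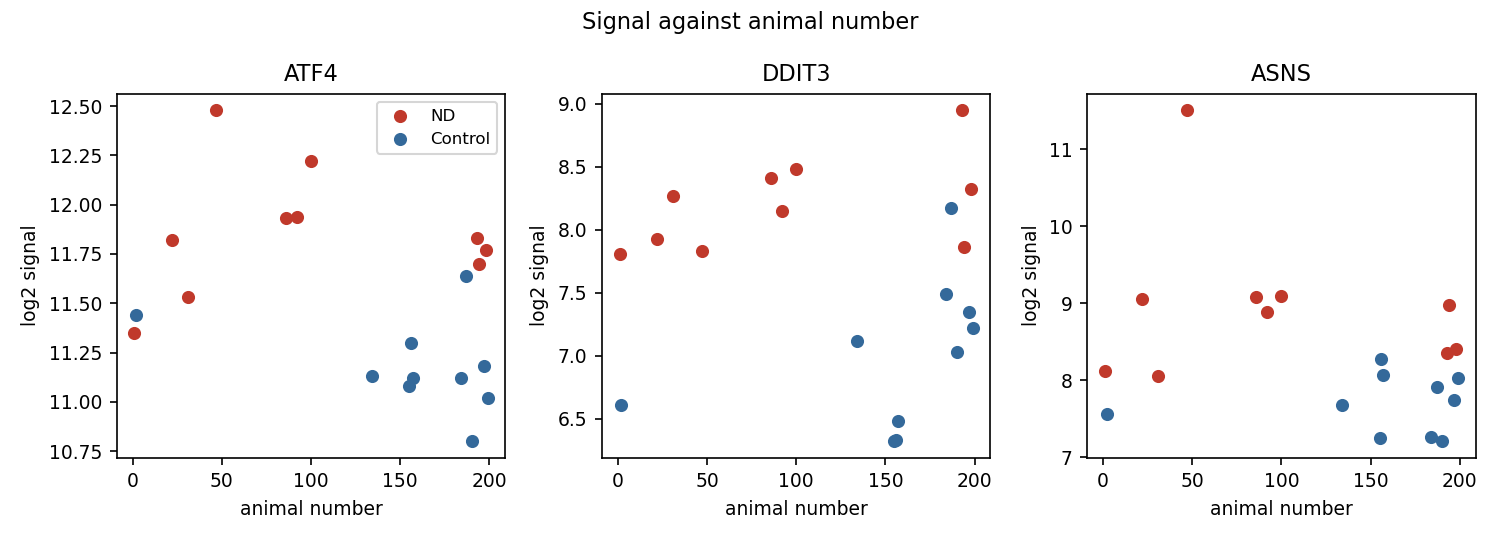
Log2 signal of ATF4, DDIT3 and ASNS (vertical axes) against animal number (horizontal axes) for ND and control animals. In the range of 180 to 200 the 3 ND animals lie above all 5 controls for ATF4 and ASNS, while Control_187 lies among them for DDIT3.

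RNA integrity, read as the 3′ minus 5′ signal of the beta-actin control probe sets, averaged 4.01 ± 0.74 in ND animals and 4.14 ± 0.60 in controls (SD, n = 10 each; permutation p = 0.680). The same measure for GAPDH was 1.67 ± 0.17 in ND and 1.85 ± 0.27 in controls (permutation p = 0.0874). With the actin measure as a term, ATF4 was at 0.65, DDIT3 at 1.22 and ASNS at 1.19, with limma adjusted p-values of 0.00218, 0.00187 and 0.0188. A term for the GAPDH measure, in which the groups lay further apart, was not fitted. The median signal of an array was on average 0.09 higher in ND pigs than in control pigs (permutation p = 0.00600). After arrays were brought to a common median the differences were 0.58, 1.10 and 1.16, and all 3 calls held.

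**Figure D3:**
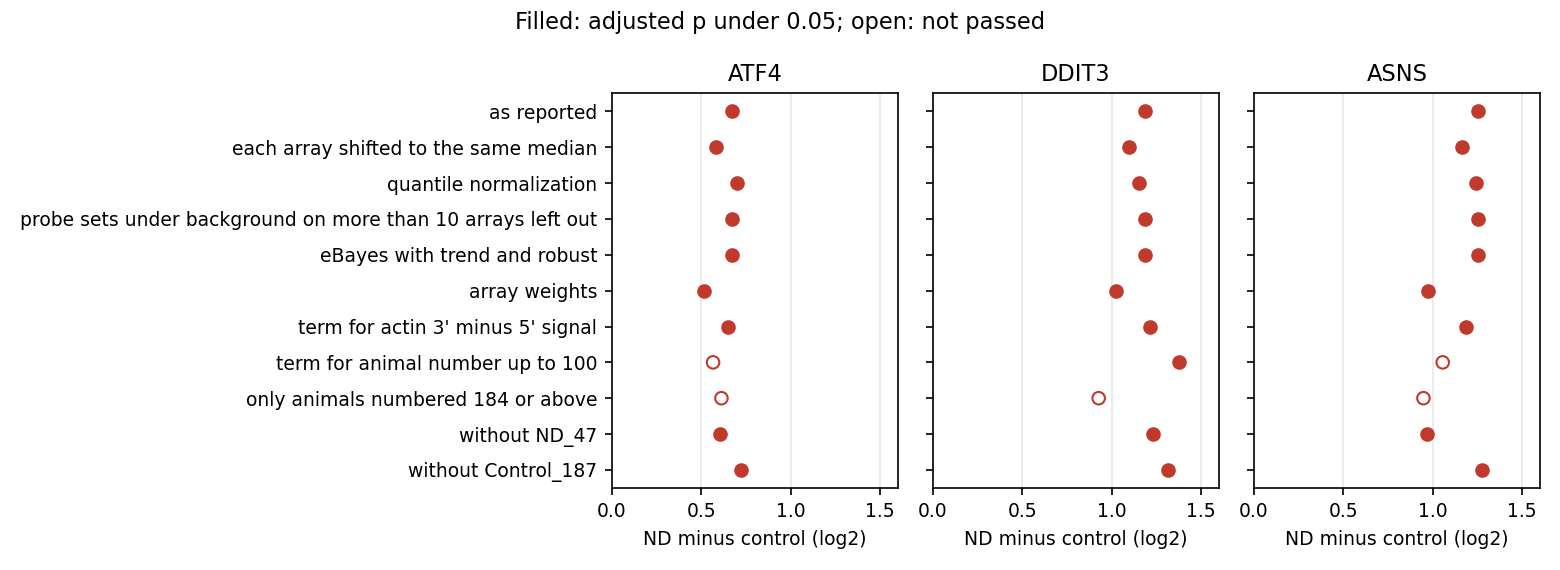
ND minus control difference (log2, horizontal axes) of ATF4, DDIT3 and ASNS under the main settings and 10 alternatives fitted with limma, 2 of them without a single animal (rows), with filled points where the limma adjusted p was under 0.05. All points lie above 0; the open ones are the animal number term for ATF4 and ASNS and the range of 180 to 200 for all 3 genes.

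Within the groups, ASNS followed ATF4 among ND animals, and DDIT3 followed neither gene detectably. Across the 10 ND animals ATF4 and ASNS had a Pearson r of 0.85 (permutation p = 8.4e-04, adjusted over 6 relations p = 0.00504) and a Spearman rho of 0.79 (permutation p = 0.00859, adjusted p = 0.0515). The animal highest for ATF4, ND_47, was also highest for ASNS, and the 2 animals lowest for ATF4, ND_01 and ND_31, were the 2 lowest for ASNS. Without ND_01 and ND_47, the animals farthest from the ATF4 median, r was 0.66 (exact permutation p = 0.0716, adjusted p = 0.293), so the relation rests in part on those animals. Without ND_47 alone r was 0.75 (exact permutation, adjusted p = 0.0790). Whether the relation is particular to this pair was not tested. The nearest genes ranked below were picked from 5640 genes for a high r on these same arrays, so a higher r there cannot decide it. Among them, NOL6 (r = 0.99), CD151 (0.96) and KRT18 (0.96) followed ASNS more closely over the same 10 ND animals. Without ND_47, over the other 19 arrays, these 3 genes ranked 42, 28 and 21 for ASNS. TUBA1B likewise followed ATF4 more closely there (0.94).

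Across the 10 controls ATF4 and ASNS had an r of 0.40 (permutation p = 0.249, adjusted p = 0.551) and a rho of 0.43 (permutation p = 0.215, adjusted p = 0.646). Whether that r differs from the one in ND animals was not tested. Without Control_187 and Control_190 it was 0.10 (exact permutation p = 0.826).

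ATF4 and DDIT3 had an r of 0.08 in ND animals (permutation p = 0.817, rho 0.30) and of 0.30 in controls (permutation p = 0.402, rho 0.18). In controls that value turned to -0.36 without Control_187 and Control_190 (exact permutation p = 0.405). The ND value depended on single animals too. It was 0.48 without ND_47 (exact permutation p = 0.184, rho 0.63) and -0.16 without ND_01 (exact permutation p = 0.663, rho 0.03). Without both animals it was 0.28 (exact permutation p = 0.504, rho 0.48). DDIT3 and ASNS had an r of -0.36 in ND animals (permutation p = 0.275, rho -0.01) and of -0.06 in controls (permutation p = 0.874, rho -0.02). Without the 2 animals farthest from the DDIT3 median these were -0.54 in ND (ND_01 and ND_193 left out, exact permutation p = 0.146) and -0.57 in controls (Control_155 and Control_187 left out, exact permutation p = 0.142). ND_47 stood at the top of its group for ATF4 and ASNS and second from the bottom for DDIT3, at 7.83. None of these 4 relations passed after adjustment (adjusted p 0.551 to 0.874), and 10 animals a group leave wide room for relations of moderate size. Within the range of 180 to 200 each group held fewer than 6 animals, too few for a correlation.

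**Figure D4:**
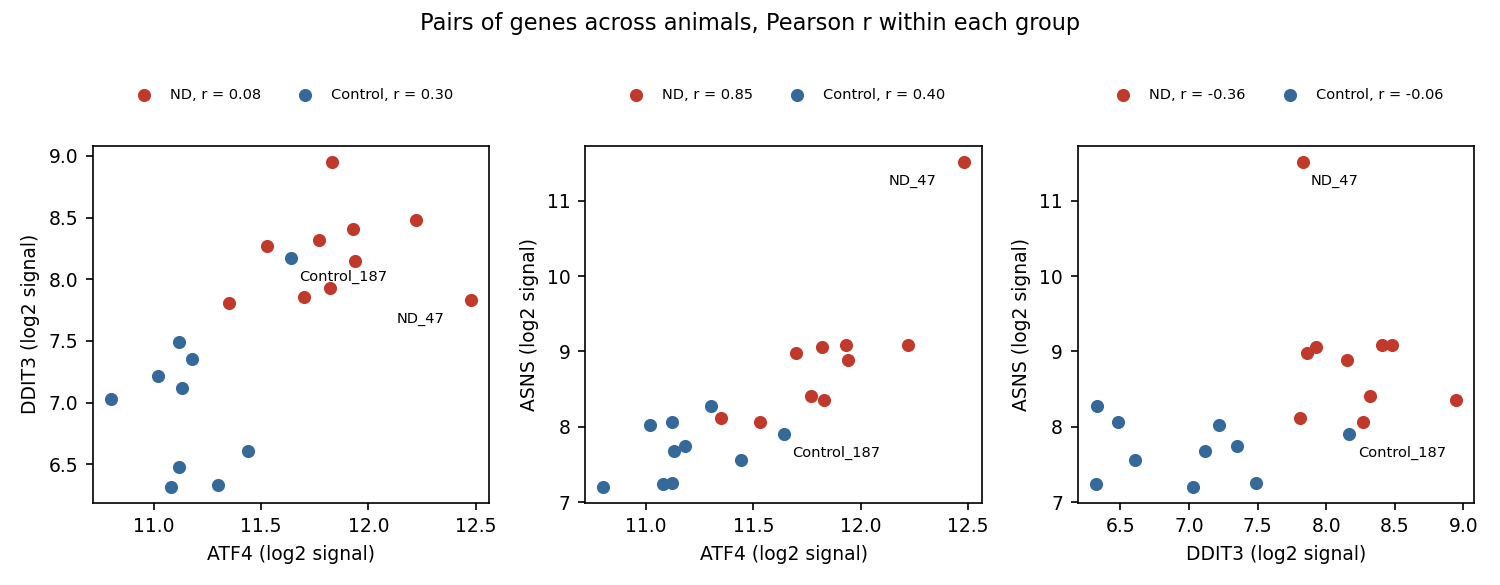
Log2 signals of each pair of genes in ND and control animals (points), with Pearson r within each group (n = 10). ATF4 and ASNS rise together among ND animals (r = 0.85), with ND_47 at the upper end of both; the other pairs have r between -0.36 and 0.40.

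Other genes were ranked by how closely they followed each of the 3 genes over the 20 arrays once group means were taken off, among 5640 genes with a mean signal above background. The 5 nearest to ATF4 were MAPK1IP1L (r = 0.83), the tubulin TUBA1B (0.82), SYS1 (0.82), the leukocyte adhesion molecule ICAM1 (0.80) and the amino acid transporter SLC38A1 (0.80), and these 5 also led without ND_47. The 5 nearest to DDIT3 were the muscle-type glycogen synthase GYS1 (0.76), SPAST (0.73), TRAPPC11 (0.72), MRPS25 (0.70) and NMNAT3 (0.70). Without ND_47 MRPS25 and NMNAT3 ranked 16 and 17, and CSNK2A1 (0.75) and C14H12orf49 (0.73) entered the first 5. GYS1 followed DDIT3 closely among controls (r = 0.93) and loosely among ND animals (r = 0.23). The 5 nearest to ASNS were LITAF (0.90), NOL6 (0.90), the keratin KRT18 (0.90), the hypoxia-induced factor HIF1A (0.89) and CD151 (0.89). Without ND_47 they ranked 10, 42, 21, 9 and 28, and TAGLN2 (0.80), MID1IP1 (0.77) and CLDN5 (0.75) led instead. Of the 15 genes named for all arrays, ICAM1 (0.96, limma adjusted p = 0.0110) passed the comparison of ND with control.

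Few other measured genes of the response passed the threshold. Lists of 120 other genes of the response, of which 73 were measured, held 4 genes past the threshold: MTHFD2, CTH and EIF2B3 were lower in ND and ERO1A was higher. That is 5.48% of the measured genes, where 9.99% of all 6765 genes passed in either direction, 5.44% as higher and 4.55% as lower in ND. The median difference of the 73 genes was -0.0089, and that over all 6765 genes was -0.02. The lists' split depended on scaling: after arrays were brought to a common median, which moved the median of all probe sets to -0.12, 1 gene was higher and 12 were lower, and with quantile normalization 0 were higher and 3 were lower. With the animal number term MTHFD2 alone passed, and within the range of 180 to 200 none did in limma. In that range 22 of 73 were at an unadjusted p under 0.05, a larger share than the 17.8% of all 6765 genes. That gap was not tested.

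Upstream of ATF4, the eIF2 kinases were represented by EIF2AK2 alone, the interferon-inducible kinase PKR that senses double-stranded RNA. It averaged 0.44 higher in ND and did not pass (limma adjusted p = 0.207). Of 13 genes listed for eIF2, eIF2B, the enzymes that remove the phosphate and related factors, 1 fell and 12 did not pass. The one that fell was EIF2B3, the gamma subunit of the exchange factor eIF2B, with signals of 7.21 to 7.88 in ND animals (median 7.58) and 7.42 to 8.38 in controls (median 8.08). Its difference was -0.43 ± 0.11 (SE; limma adjusted p = 0.0268), and the call was lost without ND_86 or Control_155 (adjusted p 0.0503 and 0.0509). EIF2B2, its beta subunit, was at -0.24 (adjusted p = 0.219), and PPP1CA, a catalytic subunit of protein phosphatase 1, was at 0.27 (adjusted p = 0.0796). PPP1R15A (GADD34), the stress-induced subunit that directs this phosphatase to eIF2, was at 0.10 (adjusted p = 0.658).

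None of 6 measured bZIP partners and relatives of ATF4 passed. ATF3, a stress-induced repressor, was at 0.63 (limma adjusted p = 0.236), the AP-1 component JUN at 0.55 (adjusted p = 0.225) and CEBPB at -0.14 (adjusted p = 0.550). ATF5 lay at background on all arrays.

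Among 9 measured ATF4 target genes of amino acid synthesis and one-carbon metabolism, 2 fell, none rose and 7 did not pass, while ASNS, counted apart from this list, was higher. MTHFD2, a mitochondrial enzyme of the folate cycle, read 6.16 to 8.06 in ND animals (median 7.41) and 8.26 to 9.45 in controls (median 8.95). These groups did not overlap, as was so for 0.325% of all genes in that direction. The difference of MTHFD2 was -1.69 ± 0.24 (SE; limma adjusted p = 2.95e-04), or 0.310-fold, and with the animal number term it was -1.59 (adjusted p = 0.0104). CTH, cystathionine gamma-lyase, which releases cysteine in the transsulfuration pathway, read 11.47 to 13.23 in ND animals (median 12.86) and 12.86 to 14.01 in controls (median 13.72). Its difference was -0.94 ± 0.19 (SE; limma adjusted p = 0.00527), or 0.520-fold. With the animal number term it was -0.87, and the call was lost (adjusted p = 0.0772).

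The serine synthesis genes of the same list had positive differences that did not pass: PSPH 0.80 (limma adjusted p = 0.148), PHGDH 0.52 (adjusted p = 0.209) and PSAT1 0.22 (adjusted p = 0.474). The cytosolic aspartate aminotransferase GOT1 was at -0.49 (adjusted p = 0.0982) and ALDH18A1 at -0.31 (adjusted p = 0.158). Of the 9 measured genes of this list 4 had positive differences. PSPH, PHGDH, PSAT1, ALDH18A1, PYCR1 and ALDH1L2 were chosen for mention after their values were seen, as were PPP1R15A, HSPA5 and XBP1.

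None of 4 amino acid transporters passed: SLC7A1, a carrier of cationic amino acids, was at 0.65 (limma adjusted p = 0.206), and SLC3A2, the heavy chain shared by several exchangers, at -0.39 (adjusted p = 0.160). The neutral amino acid carrier SLC1A4 lay above background on 2 of 10 ND arrays and on 0 of 10 control arrays. Its difference of 0.15 was therefore not read as a change. None of 9 genes of tRNA charging and tRNA export passed either. The seryl-tRNA synthetase SARS was at 0.38 (adjusted p = 0.111), the alanyl enzyme AARS at -0.20 (adjusted p = 0.223) and the glycyl enzyme GARS at 0.27 (adjusted p = 0.301).

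Of 9 measured stress effectors downstream of ATF4 and DDIT3, ERO1A rose and 8 did not pass. ERO1A, an oxidase that drives disulfide formation in the endoplasmic reticulum, read 4.92 to 6.32 in ND animals (median 5.41) and 4.57 to 5.32 in controls (median 4.92). Its difference was 0.54 ± 0.15 (SE; limma adjusted p = 0.0386). The call was lost without ND_47 or ND_92 or without Control_02, Control_134, Control_155, Control_184, Control_187 or Control_197 (adjusted p 0.0537 to 0.0727). It was also lost with array weights (adjusted p = 0.0638) and quantile normalization (adjusted p = 0.0805). The growth arrest gene GADD45A was at -0.91 (adjusted p = 0.123), and the pro-apoptotic BCL2L11 (BIM) lay at background on all arrays.

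None of 16 genes of endoplasmic reticulum chaperones and the IRE1 and ATF6 arms passed, and 4 of the 16 had positive differences. SDF2L1 was at -0.75 (limma adjusted p = 0.119), the co-chaperone DNAJB9 at -0.29 (adjusted p = 0.218) and the disulfide isomerase PDIA6 at 0.15 (adjusted p = 0.330). HSPA5, the chaperone BiP, was at 0.09 (adjusted p = 0.775), and XBP1, the target of IRE1 splicing, at -0.08 (adjusted p = 0.565). None of 6 genes of the mitochondrial stress relay passed, among them the chaperone HSPA9 (-0.13, adjusted p = 0.0712) and the proteases LONP1 (-0.26, adjusted p = 0.146) and YME1L1 (0.14, adjusted p = 0.318).

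**Figure D5:**
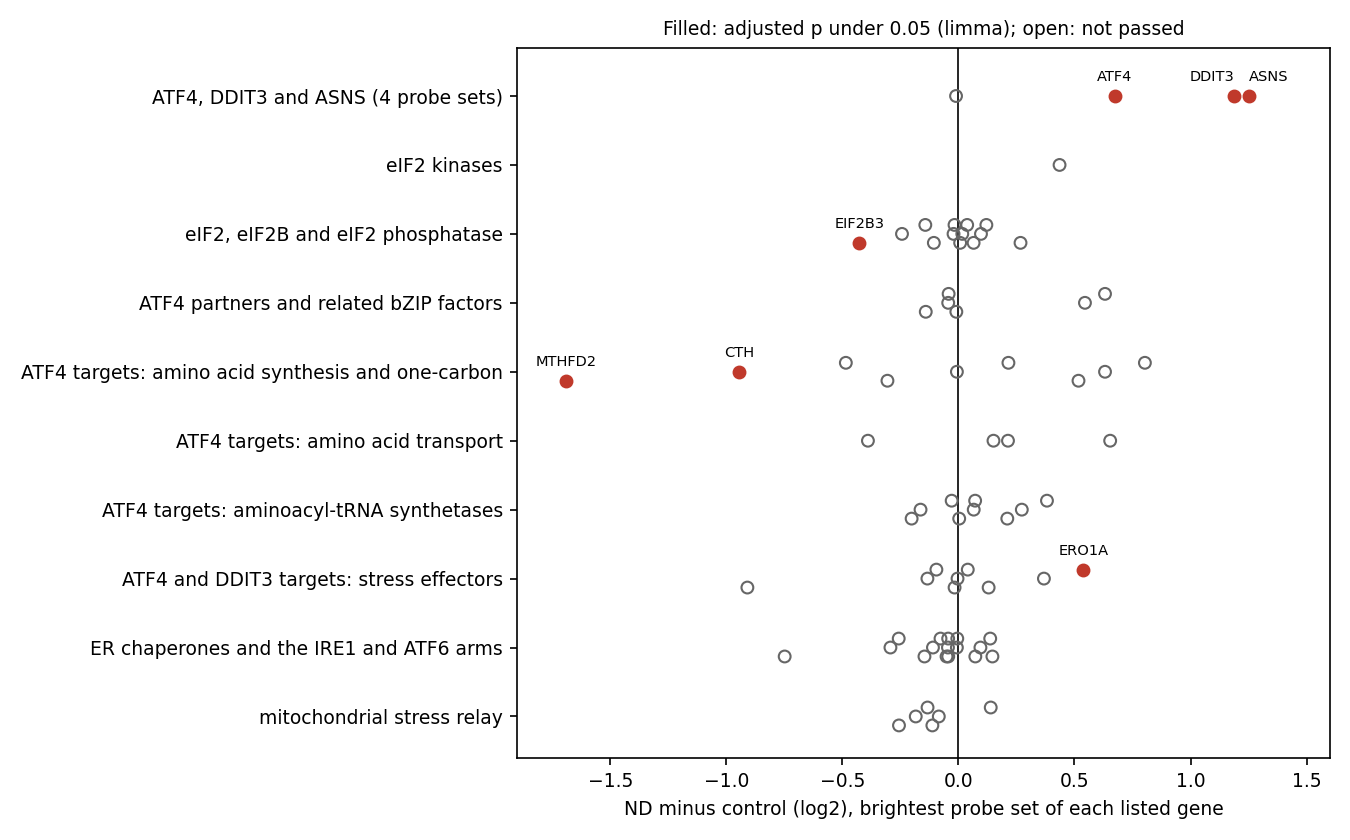
ND minus control difference (log2, horizontal axis) of the 4 probe sets of ATF4, DDIT3 and ASNS (top row) and of 73 other measured genes of the response by role (rows below), each point 1 gene and filled where the limma adjusted p was under 0.05. MTHFD2 (-1.69) and CTH (-0.94) lie furthest left and the DDIT3 and ASNS points furthest right.

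Markers of other cells moved with the groups as well. Beside the counts below, 9.99% of all 6765 genes passed in either direction. Of 6 measured T and NK cell markers 4 rose (CD3E, CD8A, LCK and GNLY). The mean signal of the 6 ranged from 3.55 to 5.33 in ND animals and from 3.05 to 3.83 in controls. Some of them lay near background. CD3E was above it on 5 of 10 ND and 0 of 10 control arrays, CD3D on 2 and 0, and LCK on 10 and 8. Monocyte and macrophage markers were split, with 2 of 6 higher (LAPTM5 and CTSS) and 3 of 6 lower (CD163, MRC1 and CD14), with a mean signal of 7.0 to 8.32 in ND and 7.33 to 8.28 in controls. Among 7 endothelial markers CLDN5 rose, and the mean signal of the 7 ranged from 5.99 to 7.70 in ND and from 6.09 to 6.60 in controls. Among 5 fibroblast and smooth muscle markers PDGFRB rose, and the mean signal of the 5 ranged from 8.35 to 10.5 in ND and from 8.28 to 9.68 in controls. None of 4 neutrophil markers passed, and S100A8, S100A12 and TREM1 lay at background on all arrays. None of 3 proximal tubule, 3 distal nephron or 5 red cell and platelet markers passed either. All 3 distal nephron markers averaged lower in ND: AQP3 by -0.54, KCNJ1 by -0.50 and SCNN1B by -0.49 (limma adjusted p 0.106, 0.0758 and 0.0876). Their mean signal ranged from 8.66 to 9.86 in ND and from 9.27 to 10.1 in controls. Of the red cell and platelet markers, HBE1 and PPBP lay at background on all arrays and ALAS2 lay above it on 1 ND array. ND_47, the animal with the highest ATF4 and ASNS signals, had the lowest proximal tubule mean of its group (9.19) and the lowest actin 3′ minus 5′ signal (2.60). It had the highest endothelial (7.70), fibroblast (10.5), monocyte and macrophage (8.32) and red cell and platelet means (4.60) of its group. The part of these markers in the ATF4, DDIT3 and ASNS differences was not tested.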

How the data were processed

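Kidney RNA of 20 pigs, 10 ND and 10 control, was measured on 1-colour arrays from 250 ng of total RNA, per the labels' protocols. The authors deposited a log2 signal for each probe set on each array; that unit was inferred from the range of 0.88 to 16.19, and background correction, summarization and normalization are not given in the sources used here. Groups and animal numbers came from the sample titles. The labels mention 2 specimens per animal and give 1 array for each number; no 2 arrays were identical.

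Of 24123 probe sets 124 controls were left out. Names came from the platform annotation: 10069 probe sets had 1 symbol, 198 several and 13732 none, giving 6765 genes, each represented by its brightest probe set. Fits used limma 3.58.1 (lmFit, eBayes) in R 4.3.3 without covariates, as the animals were randomized, with Benjamini-Hochberg adjustment over 23999 probe sets and a threshold of 0.05, and were tested on simulated data. Single values and correlations used permutation tests with 100000 resamples, exact below 10 animals.

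ATF4, DDIT3 and ASNS, and the lists of pathway and marker genes, were chosen with earlier results of these data known. Named in the text were all members, list genes past the threshold, the 3 smallest p-values of each list and the 5 genes nearest to each member; exceptions are stated. The alternatives changed the scaling, left out dim probe sets or single animals, and varied eBayes, array weights, animal number, the threshold, the probe sets of a gene and, added after the data were seen, an RNA integrity term, the exact test in numbers 180 to 200, the within-array ratios with and without ND_47, and the nearest genes without ND_47.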

Additional observations from a re-analysis of the deposited data

Results flagged for a closer look

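Single animals stood apart from their group in 9 of 58 sets of 10 values examined, by a gap to the next animal that chance gives in about 5% of such sets, and 6 of the 9 were values of ND_47. ND_47 read 11.51 for ASNS, where the other ND animals read 8.06 to 9.09. It read 1.98 for the second ATF4 probe set, which lay under background on every array, against 1.86 to 1.93 in the other ND animals. ND_47 was also highest in its group for the glycyl-tRNA synthetase GARS (11.51, others 9.48 to 10.30), for CEBPB (11.12, others 9.72 to 10.46) and for the amino acid carrier SLC1A4 (3.66, others 2.34 to 2.85), which lay above background on 2 of 10 ND arrays and on 0 of 10 control arrays. It was lowest for CTH, at 11.47, where the other ND animals read 12.32 to 13.23.

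The remaining values were those of CTH in Control_199 (12.86, other controls 13.50 to 14.01) and of the kinase gene EIF2AK2 in ND_31 (9.53, other ND animals 7.95 to 8.79) and in Control_134 (9.68, other controls 7.43 to 8.33).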

How the results depend on the processing

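ATF4, DDIT3 and ASNS kept their direction under every alternative run and their call under every scaling, filter, variance model and array weighting and without any single animal. The ranges without 1 animal were 0.60 to 0.73 for ATF4, 1.11 to 1.32 for DDIT3 and 0.97 to 1.35 for ASNS (adjusted p up to 0.0438). Calls were lost with the animal number term for ATF4 (0.57) and ASNS (1.06) and in animals numbered 180 to 200 for ATF4 (0.61), DDIT3 (0.93, also by the exact test) and ASNS (0.95), where fewer animals were compared. At an adjusted p under 0.01 ATF4 and DDIT3 kept their calls in the main fit. ASNS, at a limma adjusted p of 0.0227, lost its call there. The second ATF4 probe set turned to 0.010 with quantile normalization.

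Over all probe sets 1712 were called, 913 higher and 799 lower in ND. There were 8789 (1061 higher, 7728 lower) with arrays shifted to the same median, 505 with the number term, 57 in numbers 180 to 200 and 619 at an adjusted p under 0.01, and 1295 to 2303 without 1 animal. Quantile normalization gave 2115 (917 higher, 1198 lower). Among the 73 measured pathway genes, 4 were called, and the same settings gave 13 with shifted medians, 1 with the number term and 0 in numbers 180 to 200; without 1 animal 2 to 6 were called, and the 2 came without Control_155. In that range SLC1A4 (-0.012, near background), GARS (-0.054), DNAJB9 (0.034), PDIA6 (-0.10) and YME1L1 (-0.067) turned sign, none of them called.

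The ATF4 and ASNS correlation in ND was 0.66 without the 2 animals farthest from the ATF4 median and 0.75 to 0.90 without 1 animal, and the control value ranged from 0.19 to 0.52. ATF4 and DDIT3 turned sign in controls without 2 animals (-0.36) and ranged without 1 animal from -0.16 to 0.48 in ND and from -0.34 to 0.44 in controls. DDIT3 and ASNS ranged from -0.54 to -0.09 in ND and from -0.28 to 0.21 in controls, and were -0.54 and -0.57 without 2 animals. Each gene had 1 probe set above background on every array, so a mean over such probe sets changed nothing. The causes were not tested. No paired analysis was possible because the ND and control animals share no number.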
